A study of Mus musculus with 10 samples.

Results

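The cytosolic ribosomal protein genes encode the proteins of the large (Rpl) and small (Rps) ribosomal subunits. They were taken here by symbol from probe sets that name 1 gene: Rpl or Rps followed by a digit, Rplp0 to Rplp2, and Rpsa, leaving out the kinases named Rps6k, pseudogenes ending in -ps and Rps19bp1. This gave 49 genes of 18193 on the array, 26 of the large and 23 of the small subunit, and the brightest probe set stood for each gene. The signals come from whole mouse lenses on Affymetrix mouse arrays, which hybridise amplified RNA to short probes near the 3' end of each transcript. The 4 groups were PN56 Klf4CN (2 arrays), PN56 WT (2 arrays), E16.5 Klf4CN (3 arrays) and E16.5 WT (3 arrays), where Klf4CN is a conditional null of the transcription factor gene Klf4, WT is wild type, PN56 is postnatal day 56 and E16.5 is embryonic day 16.5. Each PN56 array held lenses pooled from 3 young adults and each E16.5 array lenses pooled from 5 embryos, and the preparations were independent, per the labels. The driver of the conditional deletion is not given in the sources used here.

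Ribosomal proteins are made in matched amounts, assembled with ribosomal RNA in the nucleolus and exported as subunits. Many of their mRNAs begin with a C followed by a run of pyrimidines, the 5' terminal oligopyrimidine (TOP) tract, through which mTOR signalling and the protein Larp1 control their translation. In the lens the anterior epithelium divides and feeds fibre cells, which make crystallin in bulk and then lose their nuclei and organelles, so that synthesis of new RNA ends in the mature fibre. Several members also have a paralog or a role outside the ribosome, as with Rps27l, a target of the tumour suppressor p53, and Rpl22l1, whose mRNA is repressed by Rpl22 in mice.

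The starts of 7 genes are shown. They are some, not all, of the members that passed the genotype test at PN56 below, and Gas5, which followed the family most closely across arrays. Each window holds 10 bases before and 20 bases from a transcription start annotated by RefSeq on GRCm38.p6, 5' to 3' on the gene's strand. Capitals mark a run that opens with C and goes on with at least 4 C or T bases and that begins within 5 bases of the start.
Rps27l, chr9:66946076-66946105, plus strand: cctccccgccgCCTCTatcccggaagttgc
Rpl22l1, chr3:28805498-28805527, plus strand: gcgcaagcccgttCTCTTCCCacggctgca
Rpl37a, chr1:72711250-72711279, plus strand: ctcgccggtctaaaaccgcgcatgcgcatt
Rpl38, chr11:114668570-114668599, plus strand: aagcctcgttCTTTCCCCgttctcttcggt
Rpl27a, chr7:109519185-109519214, plus strand: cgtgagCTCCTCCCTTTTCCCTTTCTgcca
Rps6, chr4:86857348-86857377, minus strand: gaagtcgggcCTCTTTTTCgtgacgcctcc
Gas5, chr1:161035156-161035185, plus strand: ccatctcagcCTTTCggagctgtgcggcat
The runs of Rpl38, Rps6 and Gas5 opened exactly at the annotated start, and the Rpl37a window held none. Rps27l and Gas5 have further annotated starts, whose windows held no run. Of the members that passed the genotype test but are not shown, Rpl27, Rpl22 and Rpl7l1 had no run in their windows. Rps9 and Rps2 had a run that began within 5 bases of the start. Promoters were matched for 43 of the 49 members, 51 promoters in all. A run opened exactly at the start in 8 of them (15.7%), against 2.51% of all 32851 promoters in the table, and within 5 bases of it in 21 (41.2%), against 18.3%. The letters CACCC, the core of the sequences that Krüppel-like factors bind, stood on either strand in 51.0% of the members' promoters (250 bases before to 50 after the start) and in 57.5% of all. These are matches of letters, not mapped sites.

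The deposited signals had been scaled array by array, with a mean of 500 on every array once 2% of the signals were trimmed from each end. Arrays of the same group correlated at 0.951 to 0.981 in log2 signal. Klf4 itself had a signal of 717 ± 20.9 in PN56 lenses labelled Klf4CN and 185 ± 40.3 in PN56 WT lenses (SD, n = 2 each), a log2 difference of 1.88 (limma adjusted p = 0.0042). At E16.5 it was 1079 ± 278 in lenses labelled Klf4CN and 739 ± 295 in WT lenses (SD, n = 3 each; limma adjusted p = 0.9997). A second, dimmer Klf4 probe set was 1.04 higher in log2 at PN56 in lenses labelled Klf4CN and did not pass the test (limma adjusted p = 0.095). Klf4 was therefore not lower in the lenses labelled Klf4CN, the labels do not say whether its probes lie in the deleted part, and every direction below is that of the lenses labelled Klf4CN. The labels give lens as the tissue, and all 10 lens markers were above the filter in every group. Their summed signal was 508063 to 520165 on PN56 Klf4CN and 684029 to 768830 on PN56 WT arrays, and 190356 to 206776 on E16.5 Klf4CN and 216158 to 253787 on E16.5 WT arrays. Control probes for 18S ribosomal RNA, which carries no poly(A) tail, were not alike. The 5' probe set averaged 8353 ± 3751 on PN56 Klf4CN and 1699 ± 1656 on PN56 WT arrays, and 21778 ± 945 on E16.5 Klf4CN and 1869 ± 646 on E16.5 WT arrays. The middle and 3' probe sets overlapped between genotypes at PN56 (1595 to 2330 on Klf4CN and 1178 to 3253 on WT arrays for the middle set, 2375 to 3510 and 1205 to 3309 for the 3' set). At E16.5 the middle set was at 2839 to 3108 on Klf4CN and 902 to 1450 on WT arrays, and the 3' set at 1044 to 1229 on Klf4CN and 389 to 603 on WT arrays. Other controls also parted the genotypes at PN56. The Cre spike control (3' probe set) was at 51262 to 53238 on Klf4CN and 72629 to 83845 on WT arrays. The 3' to 5' ratio of beta-actin was 1.45 to 1.60 on Klf4CN and 1.79 to 1.88 on WT arrays. That of Gapdh overlapped, at 0.68 to 0.74 and 0.71 to 0.73. The part of these controls in the genotype differences was not tested.

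Of the 49 members, 46 had a mean signal of at least 54.06 (the 40th percentile over probe sets) and were tested. The others were Rpl3l, a paralog of Rpl3 known from skeletal muscle and heart, at 5.0 to 156.5, Rpl39l, a paralog of Rpl39 known from testis, at 2.3 to 53.3, and Rps16 at 1.2 to 6.7. Rps16 is a core protein of the small subunit, and a probe set that names it together with other genes had a mean of 42651 against 2.96 for its own. In all, 110 probe sets name a ribosomal protein gene beside at least 1 other symbol, and core genes with no other probe set, such as Rpl5 and Rpl10, are not among the members. For 10 members (Rpl12, Rpl14, Rpl27a, Rpl37, Rpl39, Rps2, Rps6, Rps16, Rps25 and Rps27) such a shared probe set was brighter than the gene's own. The members' own probe sets for these genes can therefore measure a minor transcript or a copy, and signals of different genes are not set against each other here. A probe set ending in _x or _s, which Affymetrix marks as matching other transcripts, stood for 15 members, 13 with _x and 2 with _s.

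The comparison at PN56 set young adult lenses labelled Klf4CN against WT lenses. Of the 46 members tested, 8 were higher and 3 lower in Klf4CN lenses at an adjusted p under 0.05, here termed called. The members that rose were led by the paralogs Rps27l (3.6-fold) and Rpl22l1 (2.7-fold) and by the large subunit gene Rpl37a (2.07-fold). Rpl27a, of the large subunit, and Rps6 and Rps2, of the small subunit, were the members that fell. Among all 13444 genes tested, 6.08% were called higher and 6.99% lower. The median log2 difference was 0.20 over the members and -0.06 over all genes, and 28 members had a positive and 18 a negative difference. The groups did not overlap for 16 members that were higher (34.8%) and 10 that were lower (21.7%) in Klf4CN lenses, against 21.6% and 29.1% of all genes. Fewer cells of a type and less RNA per cell cannot be told apart in whole-lens samples.

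**Figure D1:**
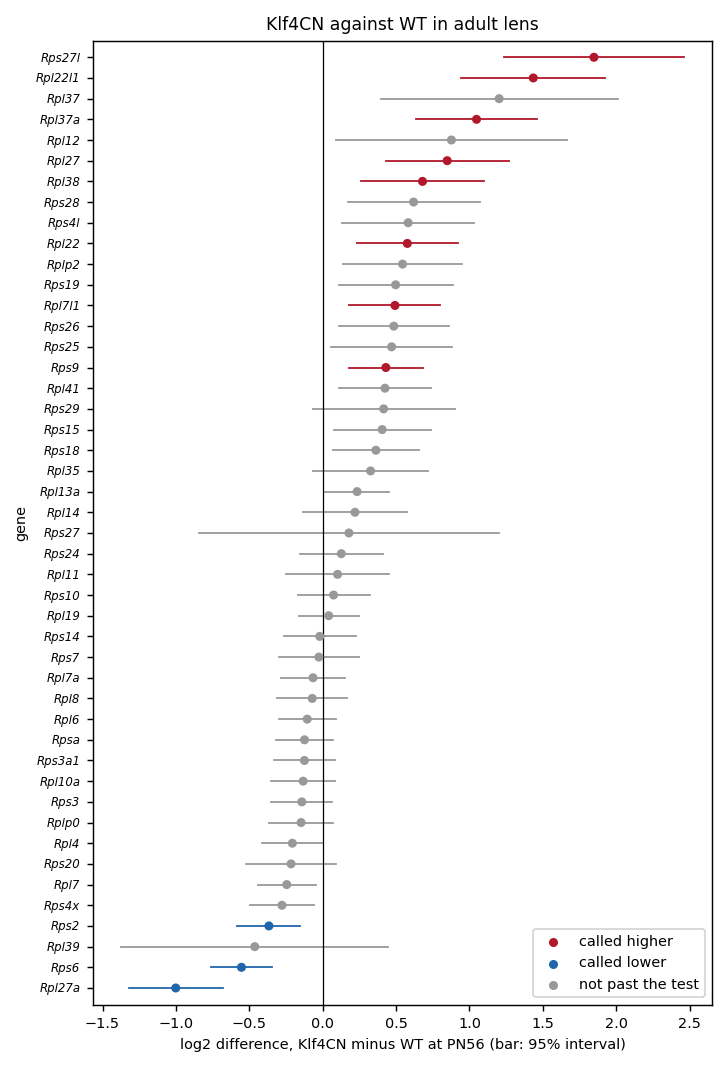
Log2 difference of each tested ribosomal protein gene (rows) between Klf4CN and WT lenses at PN56, with the 95% interval from limma as a bar. Red points are the 8 members called higher, blue points the 3 called lower and grey points those not past the test; Rps27l stands at the top with 1.85 and Rpl27a at the bottom with -1.0.

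Rps27l, the p53-responsive paralog of Rps27, had signals of 7171 and 12671 in PN56 Klf4CN lenses, against 1845 and 3762 in PN56 WT lenses. Each Klf4CN array was above both WT arrays, and the log2 difference was 1.85 ± 0.28 (SE; limma adjusted p = 0.0017). The other probe sets of Rps27l gave 1.37 and 1.49 when each probe set was fitted by itself (limma adjusted p = 0.0089 and 0.00081). Rpl22l1 had signals of 26906 and 40715 in Klf4CN lenses, against 9164 and 16327 in WT lenses. These groups did not overlap either, with a log2 difference of 1.43 ± 0.23 (SE; limma adjusted p = 0.0019). Rpl22, the core gene of which Rpl22l1 is the paralog, had 30408 and 39952 in Klf4CN lenses, against 19478 and 28028 in WT lenses, a log2 difference of 0.58 ± 0.16 (SE; limma adjusted p = 0.032). Its other probe sets gave 0.76 and -0.32, neither past the test (limma adjusted p = 0.108 and 0.169). Rpl7l1, a nucleolar paralog of Rpl7, had 1754 and 1671 in Klf4CN lenses, against 1194 and 1230 in WT lenses (log2 difference 0.49, limma adjusted p = 0.041). Rps4l, a paralog of Rps4x, was 0.58 higher without passing the test (limma adjusted p = 0.084). Thus 3 of the 4 paralogs measured above the filter were called higher and none lower, against 6.08% and 6.99% of all genes. The call of Rpl7l1 was lost under 15 of 23 alternatives.

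**Figure D2:**
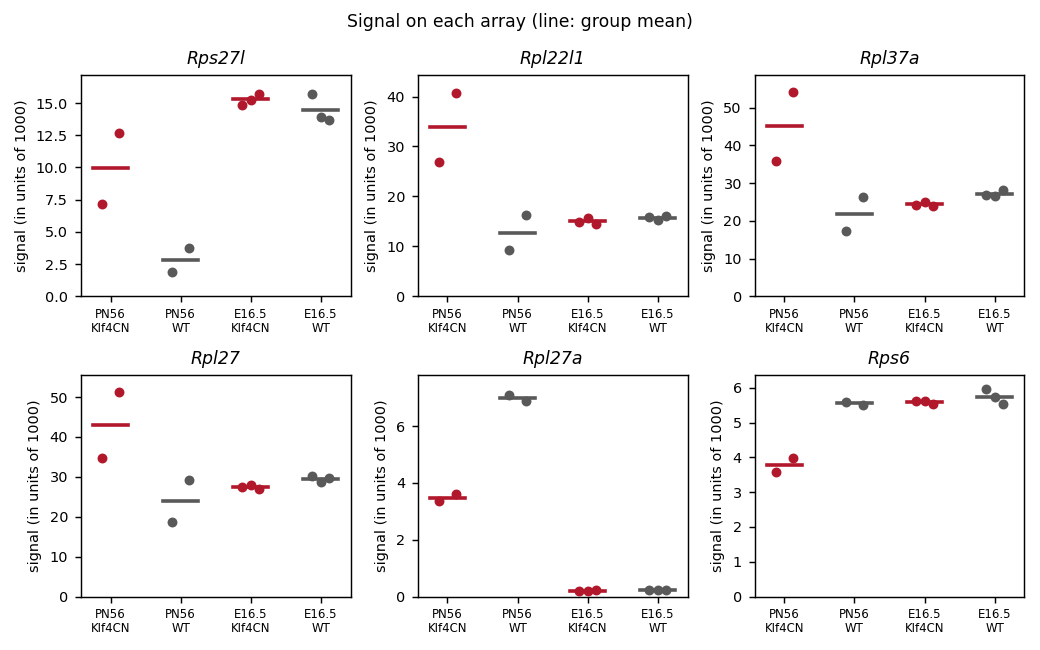
Signals of 6 ribosomal protein genes on each array (points, in units of 1000) by group (PN56 Klf4CN, PN56 WT, E16.5 Klf4CN, E16.5 WT from left to right), with the group mean as a line. For Rps27l, Rpl22l1, Rpl37a and Rpl27 both PN56 Klf4CN arrays lie above both PN56 WT arrays, and for Rpl27a and Rps6 both lie below.

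Among the 24 large subunit members tested, 6 rose and 1 fell. Rpl37a, a small zinc-binding protein of the large subunit, had signals of 35975 and 54143 in Klf4CN lenses, against 17343 and 26240 in WT lenses, with a log2 difference of 1.05 ± 0.19 (SE; limma adjusted p = 0.0044). Its further probe sets gave 1.54 and 0.94 (limma adjusted p = 0.0017 and 0.028). All 3 probe sets of Rpl37a thus rose. Rpl27, a gene mutated in Diamond-Blackfan anaemia in humans, had 34700 and 51294 in Klf4CN lenses, against 18729 and 29294 in WT lenses (log2 difference 0.85, limma adjusted p = 0.014). Rpl38, which affects translation of Hox mRNAs in mouse embryos, had 37299 and 65846 in Klf4CN lenses, against 28842 and 33150 in WT lenses (log2 difference 0.68, limma adjusted p = 0.038). The 2 Klf4CN arrays lay further apart for Rpl38 than the lower of them lay from either WT array. Rpl37 was 1.20 higher in log2 and did not pass the test (limma adjusted p = 0.052). Its signals of 2737 and 7728 in Klf4CN lenses, against 1635 and 2422 in WT lenses, did not overlap. The brighter shared probe set that names Rpl37 was called higher (0.82, limma adjusted p = 0.0125), as was that of the small subunit gene Rps25 (0.67, limma adjusted p = 0.028). Of the stalk proteins, which recruit the translation factors, Rplp2 was 0.54 and Rpl12 0.88 higher and Rplp0 0.15 lower, none past the test (limma adjusted p = 0.075, 0.132 and 0.37). The brighter shared probe set that names Rpl12 gave 0.26 (limma adjusted p = 0.29). Rpl11, which binds the p53 regulator Mdm2 as part of the 5S particle, differed by 0.10 (limma adjusted p = 0.73).

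Among the 22 small subunit members tested, 2 rose, Rps27l and Rps9, and 2 fell, Rps6 and Rps2. Rps9 had signals of 28789 and 34225 in Klf4CN lenses, against 22001 and 24649 in WT lenses (log2 difference 0.43, limma adjusted p = 0.029). With quantile normalization Rps9 was 0.28 higher and did not pass the test (limma adjusted p = 0.094). A further probe set of Rps9 had the opposite sign. Of the 10 members linked to Diamond-Blackfan anaemia, Rpl27 was called and 9 had a positive difference, among them Rps19 (0.50, limma adjusted p = 0.088) and Rps26 (0.48, limma adjusted p = 0.084). Rpsa, known also as a laminin receptor, and Rps3, known also from DNA repair, were 0.12 and 0.14 lower without passing the test (limma adjusted p = 0.40 and 0.36). Rpl13a, known also from translational silencing in inflammation, was 0.23 higher without passing it (limma adjusted p = 0.147).

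Rpl27a had signals of 3347 and 3626 in PN56 Klf4CN lenses, against 7091 and 6890 in PN56 WT lenses. The fall was 2-fold, with a log2 difference of -1.0 ± 0.15 (SE; limma adjusted p = 0.0014). Rps6, the ribosomal protein phosphorylated by S6 kinases downstream of mTOR, had 3592 and 3988 in Klf4CN lenses, against 5605 and 5520 in WT lenses, with a log2 difference of -0.55 ± 0.09 (SE; limma adjusted p = 0.0032). The second Rps6 probe set gave 0.57 and did not pass the test (limma adjusted p = 0.66), and with the mean of both probe sets the difference was 0.01. Rps2 had 55459 and 60228 in Klf4CN lenses, against 70609 and 78636 in WT lenses (log2 difference -0.37, limma adjusted p = 0.030). All 3 of these genes are among those with a brighter probe set that names other genes too. Those brighter probe sets gave 0.08 for the one that names Rpl27a, -0.27 for Rps6 and -0.30 for Rps2 (limma adjusted p = 0.80, 0.095 and 0.069), none of them past the test. Without the members that have a brighter shared probe set, a choice made after seeing the data, 8 members were called higher and 0 lower.

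The 2 arrays of each PN56 group were not alike for this family. The second Klf4CN array was above the first for 40 of the 46 members, by a median of 0.26 in log2, and the second WT array was above the first for 42, by a median of 0.22, against -0.04 and -0.02 over all genes. Members whose second array stood further above the first, averaged over both groups, tended to have a more positive genotype difference. Across the 46 members the mean of both gaps and the genotype difference had a Pearson correlation of 0.747, against 0.075 across all genes tested. This is a description over genes that share the same 4 arrays. The gaps were 0.82 and 1.02 for Rps27l on the Klf4CN and WT arrays and 0.60 and 0.83 for Rpl22l1. For Rpl27a they were 0.12 and -0.04 and for Rps6 0.15 and -0.02.

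**Figure D3:**
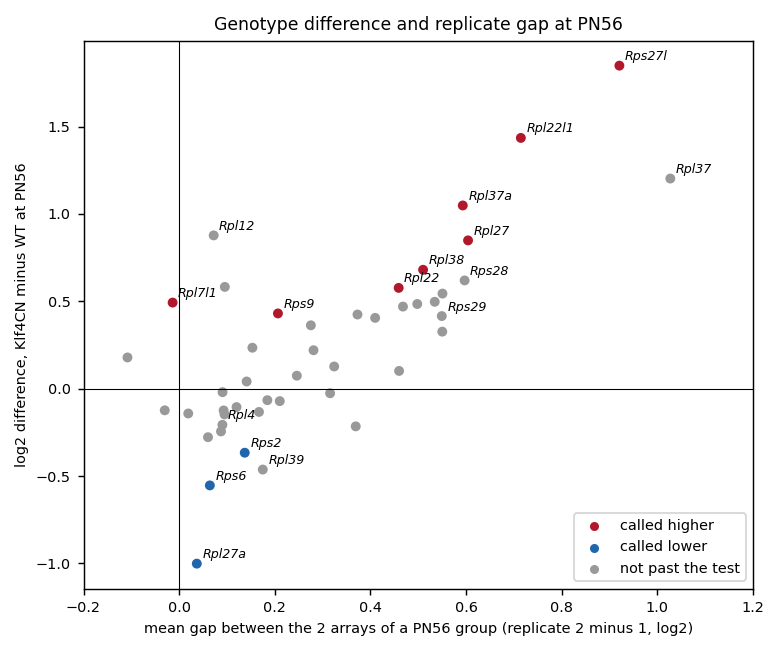
For each of the 46 ribosomal protein genes tested, the mean gap between the 2 arrays of a PN56 group (x axis, log2, second minus first array, averaged over Klf4CN and WT) against the log2 difference of Klf4CN minus WT at PN56 (y axis). Most members called higher (red) spread to the upper right, up to Rps27l, while the 3 members called lower (blue) lie near a gap of 0. Rpl7l1, called higher, also lies near 0, with gaps of -0.07 on the Klf4CN and 0.04 on the WT arrays.

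Leaving out 1 array moved the count of members called higher. It was 3 without the first WT array and 3 without the second Klf4CN array, and 14 without the second WT array and 15 without the first Klf4CN array. The median member difference was -0.01, 0.06, 0.37 and 0.27 in the same order. Rps27l, Rpl22l1 and Rpl37a were called higher under all 23 alternatives run for them, these 4 included. Their lowest log2 differences were 1.34, 1.02 and 0.75. Rpl27 lost its call under 5 alternatives of 23, Rpl22 under 7, Rpl38 under 13 of 22 and Rpl7l1 under 15 of 23. Of the members called lower, Rps2 lost its call under 10 of 22, both other scalings among them, Rpl27a under 1 of 23, and Rps6 lost it under 1 and turned positive under 1 of 23. Quantile normalization gave 10 higher and 2 lower members (83.3% higher among those called, against 72.7% for the signals as deposited), and centring each array on its median gave 13 higher and 1 lower (92.9%). Averaging the probe sets of a gene, fitting without an intensity trend and fitting the compared groups alone each gave 3 higher, and array weights gave 4. Median centring moved the median of all genes by over 0.1, to 0.08, and under it the median member difference was 0.34. Under all 3 scalings Rps27l, Rpl22l1, Rpl37a, Rpl27, Rpl38 and Rpl22 were called higher and Rpl27a lower.

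Markers of the lens and of neighbouring cells were read on the same PN56 arrays, where 6.08% of all genes were called higher and 6.99% lower. Of the 10 lens markers, 8 were called lower and 0 higher in Klf4CN lenses, and 2 of 9 macrophage markers were called higher, with a summed signal of 1948 to 3192 on Klf4CN and 1810 to 1869 on WT arrays. None of 6 pigment cell markers tested was called, with sums of 3246 to 3477 on Klf4CN and 6727 to 8436 on WT arrays. None of 8 photoreceptor markers tested was called, with sums of 4035 to 13807 on Klf4CN and 5524 to 5760 on WT arrays. Of 8 retinal progenitor and neuron, 6 erythroid and 8 endothelial markers tested, 0 were called higher and 1, an endothelial one, lower. The part of these cells in the ribosomal protein differences was not tested.

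At E16.5, in the same comparison of embryonic lenses, no member was called higher or lower. Over all genes 0.00744% were called higher and 0% lower, that is 1 gene and 0 genes. By size the members nonetheless leaned one way: 41 of 46 were lower in Klf4CN lenses, with a median log2 difference of -0.13, against 0.00 over all genes. An unadjusted limma p under 0.05 was found for 5 of the 46 members and for 610 of all 13444 genes. The groups did not overlap for 26 members that were lower (56.5%) and for 1 that was higher, Rpl39, against 6.65% and 5.24% of all genes. The lean was not particular to the members. Of 23 translation factors and further genes with a TOP tract, 20 were lower in Klf4CN lenses, with a median of -0.10. Medians were -0.02 for ribosome biogenesis, -0.03 for mitochondrial ribosomal protein, -0.06 for translation control and -0.02 for 20S proteasome genes.

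The 3 members of smallest p did not pass the test. Rps3 had signals of 22322, 22899 and 19928 in E16.5 Klf4CN lenses, against 25622, 24556 and 24931 in E16.5 WT lenses (log2 difference -0.21 ± 0.08, SE; limma adjusted p = 0.9997). Rplp0, the base of the ribosomal stalk, had 32885, 35209 and 30303 in Klf4CN lenses, against 35599, 37828 and 38694 in WT lenses (log2 difference -0.19). Rpl4, which reaches into the exit tunnel of the large subunit, had 28905, 29332 and 27033 in Klf4CN lenses, against 31616, 30796 and 34230 in WT lenses (log2 difference -0.18). For all 3 genes every Klf4CN array lay below every WT array. Both PN56 rises that led the family were near 0 at this age: Rps27l differed by 0.08 ± 0.23 and Rpl22l1 by -0.07 ± 0.18 (SE; limma adjusted p = 0.9997 for both). The common shift depended on the scaling. With quantile normalization the median member difference was -0.01, with 27 negative and 19 positive differences, and with median centring it was -0.18, with 43 negative. The 5' control for 18S ribosomal RNA was high on all 3 Klf4CN arrays at this age, and its part in the shift was not tested.

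Cell markers differed by size at E16.5 as well, although none was called. All 6 pigment cell markers tested were higher in Klf4CN lenses (median log2 difference 1.88), with summed signals of 2256 to 7755 on Klf4CN and 919 to 2313 on WT arrays. All 8 retinal progenitor and neuron markers were higher too (median 1.65; sums of 6427 to 14754 on Klf4CN and 2393 to 8943 on WT arrays). So were all 9 macrophage markers (median 0.37; sums of 8569 to 9999 on Klf4CN and 6048 to 8290 on WT arrays), while all 10 lens markers were lower (median -0.24). The part of these cells in the members' shift was not tested.

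**Figure D4:**
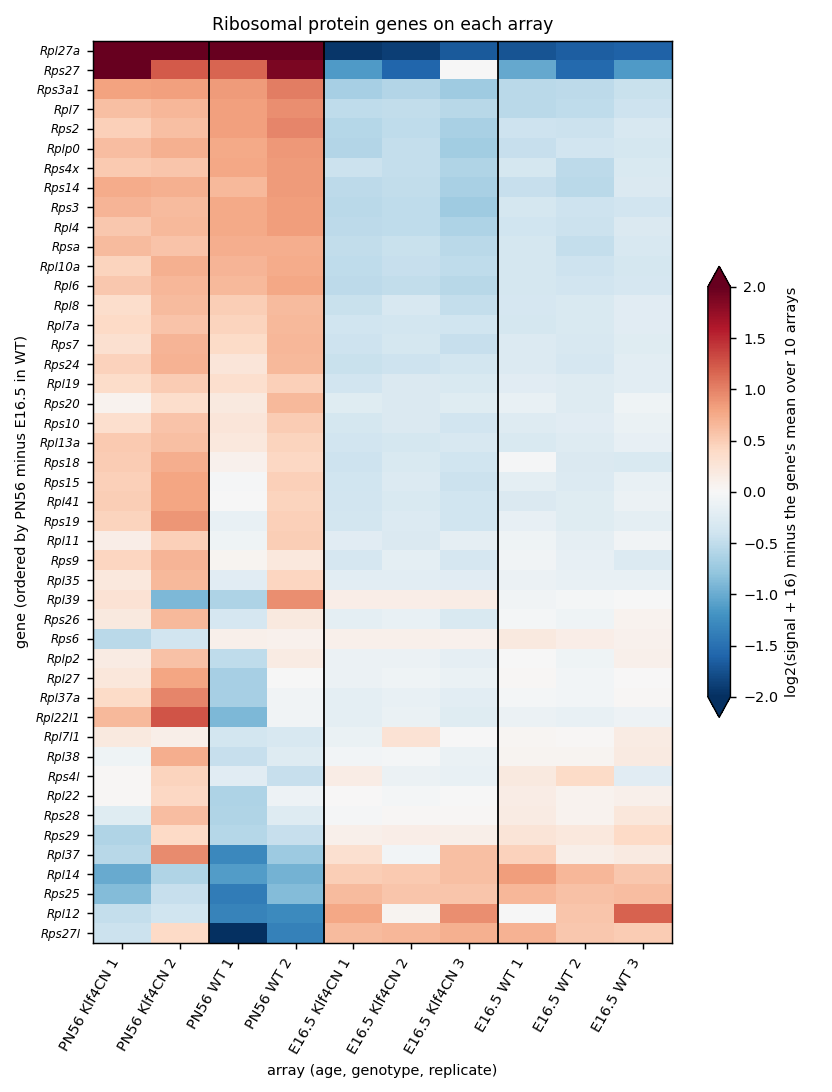
Log2(signal + 16) of each tested ribosomal protein gene (rows) minus its mean over the 10 arrays, by array (columns: PN56 Klf4CN, PN56 WT, E16.5 Klf4CN, E16.5 WT), ordered by the PN56 minus E16.5 difference in WT lenses, with values beyond 2 in either direction drawn in the end colour. Many rows are redder at PN56 than at E16.5, least so on the first PN56 WT array, where 24 of the 46 members tested lay above their own mean. The lowest rows run the other way, and the E16.5 Klf4CN columns are slightly bluer than the E16.5 WT columns.

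The difference of the Klf4CN effect between PN56 and E16.5 was itself tested. It was called higher at PN56 for 3 members and lower for 2, against 2.61% and 2% of all genes. The difference was 1.77 for Rps27l, 1.50 for Rpl22l1 and 1.21 for Rpl37a (limma adjusted p = 0.021, 0.016 and 0.019). It was -0.51 for Rps6 and -0.83 for Rpl27a (limma adjusted p = 0.035 and 0.030), while the brighter shared probe sets that name them gave -0.11 and 0.21 (limma adjusted p = 0.68 and 0.64). Of 22 alternatives, the call was lost under 4 for Rps27l, 2 for Rpl22l1, 3 for Rpl37a and 11 for Rpl27a, and for Rps6 it was lost under 13 and the sign turned under 1. Rpl27, at 0.96, just missed the threshold (limma adjusted p = 0.0505). The median over the 46 members was 0.30, against -0.07 over all genes, and 35 members had a positive difference. The count of members with a higher effect at PN56 was 1 without the first PN56 WT array and 0 without the second PN56 Klf4CN array. It was 12 without the second PN56 WT array and 12 without the first PN56 Klf4CN array. Leaving out any 1 of the 10 arrays left 0 or 1 member with a lower effect at PN56. Quantile normalization kept the same 5 calls, and median centring gave 9 higher and 0 lower (100% higher among those called, against 60% for the signals as deposited).

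The comparison of ages asked how the lens changed between the embryo and the young adult. In Klf4CN lenses 33 members were called higher and 5 lower at PN56, and in WT lenses 25 were called higher and 10 lower. Over all genes, 22.3% were called higher and 30.8% lower in Klf4CN lenses, and 25.8% and 30.9% in WT lenses. The median member difference was 0.87 in Klf4CN and 0.43 in WT lenses, against -0.10 and -0.04 over all genes. Age cannot be told apart from preparation, because the number of animals pooled differed and because the dap spike control was at 41.0 to 59.1 on PN56 Klf4CN and 2.6 to 12.6 on PN56 WT arrays, against 5479 to 6305 on E16.5 Klf4CN and 4908 to 7005 on E16.5 WT arrays. Age also went with the other tissue in the sample: all 8 endothelial markers were called lower at PN56 in both genotypes, and so were 8 of 9 macrophage markers in Klf4CN and 9 of 9 in WT lenses, and 4 of 6 erythroid markers in both, with 2 others higher in Klf4CN and 1 in WT lenses. Photoreceptor markers were called higher at PN56, 7 of 8 in Klf4CN (median 4.21) and 8 of 8 in WT lenses (median 3.57). Pigment cell markers were called higher in 1 and lower in 1 of 6 in Klf4CN lenses, and higher in 4 of 6 in WT lenses. Of the 10 lens markers, 8 were called higher and 1 lower in both genotypes. Retinal progenitor and neuron markers were called higher in 1 and lower in 5 of 8 in Klf4CN lenses, and higher in 1 and lower in 2 of 8 in WT lenses. The part of these cells was not tested.

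In WT lenses Rpl27a had the largest rise of any member, with signals of 7091 and 6890 at PN56, against 227, 240 and 247 at E16.5. In Klf4CN lenses it had 3347 and 3626 at PN56, against 193, 202 and 234 at E16.5. The log2 differences were 3.96 in Klf4CN and 4.79 in WT lenses (limma adjusted p = 9.77e-10 and 2.39e-10). Its brighter shared probe set gave 0.95 and 0.74. Rps27, a zinc finger protein of the small subunit, had 1357 and 696 at PN56, against 123, 85.0 and 287 at E16.5 in Klf4CN lenses. In WT lenses it had 662 and 1110 at PN56, against 133, 87.5 and 122 at E16.5. The log2 differences were 2.61 in Klf4CN and 2.76 in WT lenses (limma adjusted p = 0.00026 and 0.00016), while the brighter shared probe set gave 0.64 and -0.13. Both genes thus had far larger differences on their own dim probe sets than on the shared ones.

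Rps3a1 and Rps2 of the small subunit and Rpl7 of the large subunit were among the bright genes that rose in both genotypes. Rps3a1 had 78969 and 79713 at PN56, against 28485, 30262 and 27671 at E16.5 in Klf4CN lenses (log2 difference 1.46, limma adjusted p = 6.63e-08). In WT lenses it had 81481 and 91827 at PN56, against 31048, 31657 and 33375 at E16.5 (log2 difference 1.43, limma adjusted p = 6.16e-08). Rpl7 rose by 1.14 in Klf4CN and 1.36 in WT lenses, and Rps2 by 1.11 and 1.29. Rplp0 rose by 1.25 in Klf4CN and 1.21 in WT lenses on the deposited scale, and with quantile normalization its difference in WT lenses was -0.03. Rpsa rose by 1.09 in Klf4CN and 1.11 in WT lenses, and Rps3 by 1.24 and 1.17. Rps14, a small subunit gene deleted in the human 5q- syndrome, rose by 1.28 in Klf4CN and 1.18 in WT lenses. Rpl22l1 was called higher in Klf4CN lenses (1.14, limma adjusted p = 0.00053) and was at -0.36 in WT lenses (limma adjusted p = 0.152).

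Rps27l had the largest fall with age in WT lenses, with 1845 and 3762 at PN56, against 15662, 13950 and 13715 at E16.5 (log2 difference -2.44, limma adjusted p = 6.57e-06). In Klf4CN lenses it had 7171 and 12671 at PN56, against 14870, 15250 and 15699 at E16.5 (log2 difference -0.68, limma adjusted p = 0.042), a call lost under 9 of 23 alternatives. The order of the groups for Rps27l was E16.5 Klf4CN and E16.5 WT, whose ranges overlap, then PN56 Klf4CN and then PN56 WT. Rps6 fell in Klf4CN lenses, with a log2 difference of -0.56 (limma adjusted p = 0.00016), and was at -0.05 in WT lenses (limma adjusted p = 0.68), and its brighter shared probe set rose by 1.38 and 1.49. Rpl12, Rpl14 and Rps25 fell in both genotypes, with log2 differences of -1.02, -1.35 and -1.25 in Klf4CN and -1.88, -1.71 and -1.75 in WT lenses. All 3 were measured on dim probe sets, and the brighter probe sets that also name them gave 0.88, 0.97 and 0.81 in Klf4CN and 0.47, 0.97 and -0.09 in WT lenses. Rpl37 and Rps29 fell in WT lenses, with -1.26 and -0.81 (limma adjusted p = 0.0070 and 0.0047). The brighter shared probe set that names Rpl37 gave -0.10 in WT lenses (limma adjusted p = 0.63), and the call of Rpl37 was lost without the first PN56 WT array. The fall of Rpl12 in Klf4CN lenses was lost without any 1 of 4 arrays: the first or the third E16.5 Klf4CN array, or either PN56 Klf4CN array. Without the members that have a brighter shared probe set, 30 were called higher and 1 lower in Klf4CN lenses, and 22 higher and 6 lower in WT lenses.

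How far the family as a whole rose with age depended on the scaling. With quantile normalization 13 members were called higher and 13 lower in Klf4CN lenses, with a median of 0.01, and 11 higher and 22 lower in WT lenses, with a median of -0.27. With each array centred on its median, 27 were called higher and 6 lower in Klf4CN lenses (median 0.46), and 13 higher and 17 lower in WT lenses (median -0.18). Median centring moved the median of all genes to -0.49 in Klf4CN and -0.61 in WT lenses, and the members' medians were above these. The share of higher genes among the members called was 86.8% in Klf4CN and 71.4% in WT lenses as deposited, 50% and 33.3% with quantile normalization, and 81.8% and 43.3% with median centring. Over all genes that share was 42.1% and 45.5% as deposited, 41.1% and 41.7% with quantile normalization, and 21.6% and 18.7% with median centring. In WT lenses 6 members called higher as deposited were called lower with quantile normalization, and in Klf4CN lenses 4 were.

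**Figure D5:**
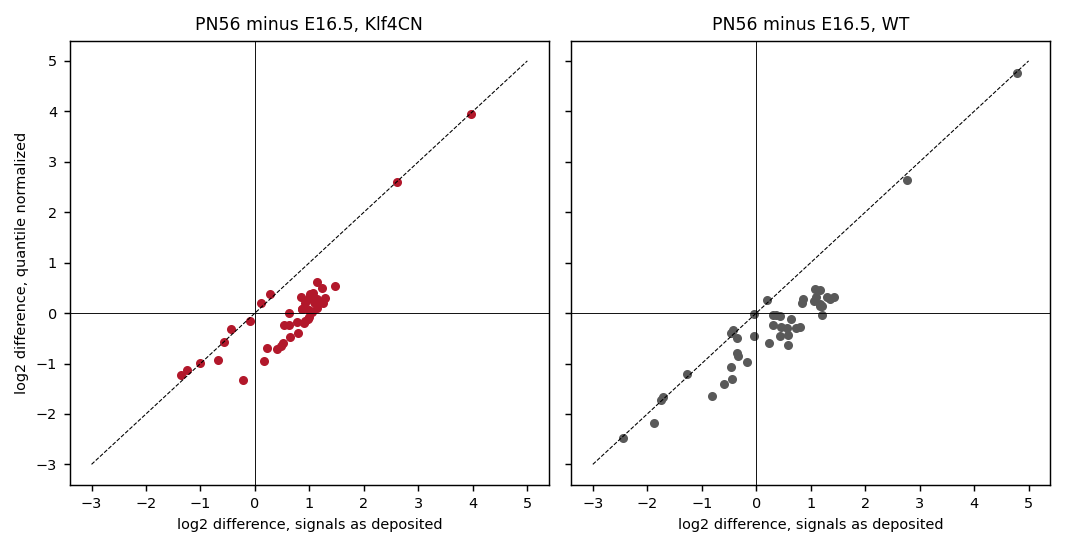
Log2 difference of PN56 minus E16.5 for each tested ribosomal protein gene with the signals as deposited (x axis) and after quantile normalization (y axis), in Klf4CN lenses (left) and WT lenses (right); the dashed line marks equal values. Most genes lie below the line, and the group near 1 on the x axis lies closer to 0 on the y axis. Some of that group stay above 0 in both genotypes, such as Rpl10a (0.40 in Klf4CN and 0.48 in WT lenses) and Rps3 (0.50 and 0.47).

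Some members kept their call under all 3 scalings. In Klf4CN lenses 13 were higher at PN56 (Rpl10a, Rpl22l1, Rpl27a, Rpl4, Rpl6, Rps14, Rps15, Rps19, Rps2, Rps27, Rps3, Rps3a1 and Rps9) and 5 lower (Rpl12, Rpl14, Rps25, Rps27l and Rps6). In WT lenses 9 were higher (Rpl10a, Rpl27a, Rpl6, Rpl7, Rps2, Rps27, Rps3, Rps3a1 and Rpsa) and 10 lower (Rpl12, Rpl14, Rpl22, Rpl37, Rpl38, Rpl7l1, Rps25, Rps27l, Rps28 and Rps29). Rps24, Rps10, Rps7 and Rpl13a, which rose in both genotypes on the deposited scale (by 0.98, 0.79, 0.90 and 0.91 in Klf4CN and by 0.72, 0.58, 0.80 and 0.57 in WT lenses), had negative differences with quantile normalization.

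The probe sets that name several genes, set aside above, were fitted together with all others as a further view of the family. At PN56, 22 of 103 were called higher and 5 lower in Klf4CN lenses, against 5.44% and 5.33% of all probe sets, with a median of 0.09. At E16.5 none was called higher or lower and the median was -0.13. With age 72 were called higher and 5 lower in Klf4CN lenses, against 23.9% and 25.8% of all probe sets, and 61 higher and 17 lower in WT lenses, against 27.1% and 26.1%. These probe sets share the arrays and their scaling with the members. Of the 50 further probe sets that name a member alone, 8 had the opposite sign to the brightest one at PN56, among them sets of Rps6 and Rpl22, and 10 did at E16.5. With age, 13 had the opposite sign in Klf4CN and 14 in WT lenses.

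Other genes of protein synthesis are given side by side, against 6.08% called higher and 6.99% called lower of all 13444 genes at PN56. Of 23 translation factors and further genes with a TOP tract, 2 were called higher and 5 lower in PN56 Klf4CN lenses. Fau, whose product is cleaved to the small subunit protein eS30, rose by 0.83, and Eif3f and Eef1d, a subunit of initiation factor eIF3 and an exchange factor for eEF1A, fell, with -0.64 and -0.47 (limma adjusted p = 0.0068, 0.0030 and 0.0069). Of 40 genes of ribosome biogenesis and RNA polymerase I, 4 rose and 4 fell, among them Fbl, the methyltransferase fibrillarin (0.61, limma adjusted p = 0.0056), and Polr1c, an RNA polymerase subunit (-0.58, limma adjusted p = 0.013). Of 76 mitochondrial ribosomal protein genes, 9 rose and 6 fell, Mrpl13 by 0.85 and Mrps18c by 1.29 being among the rises (limma adjusted p = 0.0026 and 0.0063). Of 21 genes of translation control 2 rose and 2 fell. Eif4ebp1, the mTOR-regulated repressor of cap-binding eIF4E, had 1159 and 1526 in Klf4CN lenses, against 508 and 603 in WT lenses (log2 difference 1.24, limma adjusted p = 0.00039). Eif4e itself rose by 0.63 and Mtor fell by 0.71 (limma adjusted p = 0.0018 and 0.025), while Max, the partner of Myc, fell by 1.93 (limma adjusted p = 3.72e-05). Of 14 genes of the 20S proteasome core, 1 rose, Psma5, and 0 fell. None of the genes of these 5 lists was called higher or lower at E16.5.

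With age the calls of these lists stand against 22.3% higher and 30.8% lower of all genes in Klf4CN lenses and 25.8% and 30.9% in WT lenses. Of the translation factors and other TOP genes, 16 were called higher and 3 lower in Klf4CN lenses, and 15 and 3 in WT lenses, including Eif3h (1.48 in Klf4CN and 1.43 in WT lenses) and Tpt1, the translationally controlled tumour protein (1.32 and 1.47). Of the biogenesis genes, 6 were called higher and 24 lower in Klf4CN lenses, and 8 and 25 in WT lenses. Nop58, a core protein of box C/D snoRNPs, had differences of -2.61 in Klf4CN and -2.35 in WT lenses, and Npm1, nucleophosmin, of -1.27 and -1.2. Of the mitochondrial ribosomal protein genes, 10 were called higher and 29 lower in Klf4CN lenses, and 10 and 42 in WT lenses. Of the proteasome genes, 2 were called higher and 8 lower in Klf4CN lenses, and 0 and 8 in WT lenses. Of the translation control genes, 2 were called higher and 14 lower in Klf4CN lenses, and 2 and 11 in WT lenses. With quantile normalization the translation factors and other TOP genes had 7 higher and 6 lower in Klf4CN lenses, and 9 and 7 in WT lenses, and with median centring 8 and 3 in Klf4CN lenses, and 7 and 8 in WT lenses. The other 4 lists had more lower than higher calls in both genotypes under all 3 scalings.

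The 5 genes outside the family whose signal followed the members' mean log2 signal most closely over the 10 arrays were Gas5 (Pearson r = 0.995), 5930403N24Rik (0.990), Gm11110 (0.978), Gm5617 (0.978) and Pold4 (0.974). Gas5 is a noncoding RNA with a TOP tract that hosts snoRNAs, and Pold4 is a small subunit of DNA polymerase delta. The arrays fall into 2 ages and share the deposited scaling, so these correlations describe the order of 10 arrays. The members' mean deviation on those arrays was 0.30 and 0.56 on PN56 Klf4CN, 0.02 and 0.35 on PN56 WT, -0.26, -0.26 and -0.25 on E16.5 Klf4CN and -0.15, -0.20 and -0.11 on E16.5 WT arrays, in log2. The PN56 Klf4CN array with the lower value lay below the PN56 WT array with the higher one, so that the genotypes overlapped at PN56. Gas5 itself differed by 0.30 between genotypes at PN56 (limma adjusted p = 0.24) and by 1.09 in Klf4CN and 0.64 in WT lenses between ages (limma adjusted p = 4.98e-05 and 0.0025).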

How the data were processed

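Whole mouse lenses were measured on 10 arrays in 4 groups of genotype and age, taken from the labels. The values as deposited were intensities on a linear scale, made with GCOS 1.4 per the submitters' processing notes; further steps are not given. Of 45101 probe sets, 64 controls were left out, 34945 carried 1 gene symbol, 932 several and 9160 none; 34741 were matched to RefSeq names and 0 symbols changed.

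Log2(signal + 16) of the brightest probe set per gene was fitted for 13444 genes with limma 3.58.1 in R 4.3.3 (4 group means, eBayes with trend, two-sided, Benjamini-Hochberg over all genes). The offset makes fold changes of dim genes too small. The number of arrays limits the precision. Named genes were Klf4, the 6 largest called rises and falls per comparison among members whose groups did not overlap (where none passed, the 3 of smallest p), members by role, up to 4 called genes of smallest p per list, and 5 genes by likeness. Genes named beside these were chosen after their values were seen. Members and lists were chosen with earlier results of these data known. The fit was tested on simulated data. Alternatives were other scalings, offsets, filters, probe set rules and fits, a replicate block and leaving out each array. The main fit did not pair samples by replicate number. Correlations of same-numbered deviations were 0.271, 0.240 and 0.052 at E16.5 and 0.041 at PN56. With so few arrays in a group these cannot decide whether same-numbered arrays shared a batch.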

Additional observations from a re-analysis of the deposited data

Results flagged for a closer look

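The difference of the Klf4CN effect between PN56 and E16.5 passed the test for 5 ribosomal protein genes: it was 1.77 for Rps27l, 1.50 for Rpl22l1 and 1.21 for Rpl37a, and -0.51 for Rps6 and -0.83 for Rpl27a (limma adjusted p = 0.021, 0.016, 0.019, 0.035 and 0.030). The brighter shared probe sets that name Rps6 and Rpl27a gave -0.11 and 0.21, not past the test. Of 22 alternatives, the call of Rps6 was lost under 13 and its sign turned under 1, and that of Rpl27a was lost under 11. A control signal that enters no comparison of genes stood above the WT level: the 5' control for 18S ribosomal RNA averaged 21778 on E16.5 Klf4CN arrays, against 1869 on E16.5 WT arrays, and 8353 on PN56 Klf4CN arrays, against 1699 on PN56 WT arrays. At PN56 the middle and 3' probe sets of 18S ribosomal RNA overlapped between the genotypes.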

How the results depend on the processing

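At E16.5 no alternative called a member. With quantile normalization the counts with age were 13 higher and 13 lower in Klf4CN lenses (median 0.0067) and 11 and 22 in WT lenses (median -0.27). Among the differences that turned negative under it were Rps24 -0.11, Rpl13a -0.15, Rps7 -0.21, Rps10 -0.40, Rpl27 -0.23, Rpl11 -0.23 and Rplp2 -0.59 in Klf4CN lenses. In WT lenses they included Rplp0 -0.033, Rps7 -0.28, Rps24 -0.29, Rps10 -0.63 and Rpl13a -0.30. The sign of the age difference was not the same under all 3 scalings for 16 members in Klf4CN and 15 in WT lenses. With median centring there were 13 higher and 1 lower at PN56 between genotypes (median 0.34), 9 and 0 for the difference between ages (median 0.50), a median of 0.46 with age in Klf4CN lenses, and 13 and 17 with a median of -0.18 in WT lenses, where Rps10 was at -0.035 and Rpl13a at -0.040. With probe sets averaged per gene, 3 members were higher and 0 lower between genotypes at PN56, 0 were lower for the difference between ages, 16 were higher with age in WT lenses (median 0.17; 0.60 in Klf4CN lenses), Rps6 was at 0.0070 at PN56 and 0.19 for the difference between ages, and Rpl13a at -0.32 in WT lenses. With every probe set by itself, 16 were higher between genotypes at PN56, 58 higher and 13 lower with age in Klf4CN lenses (median 0.70), 41 and 28 in WT lenses (median 0.24), and 5 higher for the difference between ages. Without probe sets marked _x or _s the median with age in WT lenses was 0.24, and Rps24 was at -0.36 in Klf4CN and -0.57 in WT lenses. Without an intensity trend 3 were higher between genotypes at PN56 and 0 were higher and 0 lower for the difference between ages; array weights gave 4 and, for that difference, 0 lower; a fit on the compared groups gave 3, and the filter at the 60th percentile gave 5 higher for that difference. With a replicate block there were 9 higher and 3 lower at PN56, 33 and 5 with age in Klf4CN lenses, 25 and 11 in WT lenses, and 5 and 1 for the difference between ages. Whether the replicate numbers pair the samples could not be decided. Without members that have a brighter shared probe set, chosen after seeing the data, 0 were lower between genotypes and 0 for the difference between ages, 1 with age in Klf4CN and 6 in WT lenses. Leaving out each array in turn gave 3 to 15 higher between genotypes at PN56 (median -0.015 to 0.37), 0 to 12 higher and 0 to 1 lower for the difference between ages (median 0.080 to 0.46), 3 to 6 lower with age in Klf4CN lenses (median 0.73 to 0.97) and 5 to 13 lower in WT lenses (median 0.21 to 0.68); a lone PN56 array was assumed to vary like the other groups. Where no value above shows the cause, the cause was not tested. Probes of many members match related genes, which signal alone cannot part.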
